A study of Mus musculus with 2 samples.

Results

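The genes described here encode receptors, and 1 ligand, through which signals act on the contraction of the ureter. There are 10 of them, chosen by name: the endothelin receptors Ednra and Ednrb and the ligand gene Edn1, the muscarinic receptors Chrm2 and Chrm3, the angiotensin receptors Agtr1a and Agtr2, the prostaglandin receptor Ptger2, the oxytocin receptor Oxtr and the adrenoceptor Adra1a. All 10 were found by name among the 31693 genes of the array, with 11 of its 39429 probes. Of the 10, 8 were well above background and entered the test with 21978 genes in all, and Chrm2 and Adra1a did not.

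RNA came from whole ureters dissected from NMRI mouse embryos at stage E14.5 of gestation. RNA labelled Bmp4cKO came from Tbx18(cre/+);Bmp4(fl/fl) embryos, in which cre sits in 1 copy of Tbx18 and removes floxed Bmp4 only where that gene is active. RNA labelled control came from Tbx18(+/+);Bmp4(fl/?) embryos, which have no cre and whose second Bmp4 allele the label leaves as a question mark. Each of 2 two-colour arrays took 1 RNA of each label, with the dyes swapped between arrays; replicate 1 is labelled female and replicate 2 male. The labels do not say how many embryos gave each RNA, so the p-values cannot speak for the spread among embryos. Each p-value takes in the spread of its gene between these 2 arrays, but gives more weight to a variance pooled from all genes tested.

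The ureter moves urine to the bladder by waves of contraction of its smooth muscle coat, which forms from mesenchyme around the epithelial tube. Endothelin, angiotensin II, acetylcholine, noradrenaline, prostaglandins and oxytocin bind receptors of the G protein-coupled family, and those coupled to Gq raise calcium in the muscle cell, while those coupled to Gs raise cyclic AMP and relax it. The secreted signal BMP4 from the ureteric mesenchyme is known to be needed for its smooth muscle to form.

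Each gene was read by probes of 60 bases, of which the first 30 are printed here for the 3 receptors called higher together with Bmp4, for Ptger2, whose signals were above control on both arrays but which did not pass the test, and for Bmp4. They show which stretch of transcript each value stands for.
Ednrb probe 1: aaggacgccccagatcttcaattttaagtt
Ednrb probe 2: tataccctgatgacctgcgaaatgctcagg
Chrm3: ggatttgactcttggttcttgcaaagtact
Agtr1a: tcctccacatatatgtacatatgtatctct
Ptger2: taaatgcagtcagaccaaatgaaattcatt
Bmp4: caaccacctacacataccacacaaactgct
The probes of Ednrb lie at chr14:104214484-104214543 and chr14:104220870-104220929 in mouse build mm9, on the minus strand. They are 6326 bases apart and share no run longer than 5 bases, so they are separate readings of that gene. The others lie at chr13:9875880-9875939 for Chrm3, chr13:30474638-30474697 for Agtr1a, chr14:45622004-45622063 for Ptger2 and chr14:47003391-47003450 for Bmp4. The part of the transcript (exon, UTR) is not given by the files. The Agtr1a probe and that of its close relative Agtr1b matched at no more than 22 of 60 bases, with no shared run over 6.

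The direction of every ratio rests on the dye labels, and the targeted gene goes against them. Bmp4 had processed signals of 3613 and 1973 in the RNAs labelled control and of 29491 and 27393 in those labelled Bmp4cKO, on replicates 1 and 2. Its mean log2 ratio of Bmp4cKO over control was 3.38 ± 0.48 (SD, n = 2 arrays), and the authors' deposited table has the opposite sign, with signed folds of -8.16 and -13.9 for the same probe. The sources used here do not say which exons are floxed, and a probe outside them is no check of the deletion. A further Bmp4 probe, at chr14:47003198-47003257, was not well above background in any RNA. Tbx18, in which the Bmp4cKO genotype carries cre in 1 copy, was also higher in the RNAs labelled Bmp4cKO. Its log2 ratios were 0.85 and 1.08 on replicates 1 and 2. Whether the dye labels are exchanged was not tested. Directions are therefore stated relative to Bmp4: "higher" means higher in the RNA labelled Bmp4cKO, the side where Bmp4 was higher, and all turn if the dye labels are exchanged. Both channels of replicate 2 are labelled male, but Xist, the X-linked RNA of females, had a signal of 2120 in its RNA labelled Bmp4cKO and 85.2 in its RNA labelled control. The Y-linked genes Ddx3y and Eif2s3y were well above background only in that control. On replicate 2 these sex-linked signals thus differed between the genotypes along with every ratio, and their part in the results was not tested. Tbx18 of the mesenchyme, Acta2 of smooth muscle and Upk3a of the urothelium were well above background in all 4 RNAs. So were the kidney genes Smoc2 and Wt1, and 69.3% to 74.6% of probe spots in a channel. The flag therefore does not show how much of each tissue was present.

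Ednrb had the largest ratio of the 8 measured genes in the reported setting, but not in all settings. With the processed signals the mean log2 was 1.52 for Ednrb and 2.01 for Chrm3, and Chrm3 was also above Ednrb with plain background subtraction and below it in the reported setting. Ednrb encodes the endothelin B receptor, found on smooth muscle, endothelium and cells of neural crest origin. Its probe 1 had processed signals of 2236 and 1928 in the RNAs labelled control and of 6650 and 5345 in those labelled Bmp4cKO. The genotypes did not overlap, and the lower Bmp4cKO signal was over 2 times the higher control signal. Replicate 1 gave a log2 ratio of 1.54 and replicate 2 one of 1.44, with mean 1.49 ± 0.07 (SD, n = 2 arrays), or 2.81-fold higher (95% interval of the mean log2 1.19 to 1.79; limma adjusted p = 0.020). Probe 2 had signals of 1100 and 1181 against 2717 and 3240. Its ratios of 1.18 and 1.49, mean 1.33, lay close to those of probe 1.

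Ednra encodes the endothelin A receptor, the main contractile endothelin receptor of smooth muscle. It had signals of 13041 and 13883 in the RNAs labelled control and of 11485 and 10850 in those labelled Bmp4cKO. The control signals were both above the Bmp4cKO signals, by a small margin. The log2 ratio was -0.06 and -0.46, a mean of -0.26 ± 0.28 (SD, n = 2 arrays; 95% interval -0.63 to 0.12), and did not pass the test (limma adjusted p = 0.54).

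Edn1, the gene of the ligand endothelin-1, was printed in 10 spots per array. Its probe, at chr13:42403101-42403160, had mean signals of 128 and 129 in the RNAs labelled control and of 110 and 102 in those labelled Bmp4cKO. All 9 spots kept on replicate 1 and all 10 on replicate 2 had a log2 ratio below 0, with a spot mean of -0.19 ± 0.08 (SD, 9 spots) and -0.24 ± 0.06 (SD, 10 spots). Spots of an array share the same RNA, so they measure the precision of a reading and not of the genotype. Over arrays the mean was -0.22 ± 0.04 (SD, n = 2 arrays; 95% interval -0.52 to 0.08; limma adjusted p = 0.51), and Edn1 was not called. Ligand and A receptor were thus both slightly lower in signal on each array, while the B receptor was higher.

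**Figure D1:**
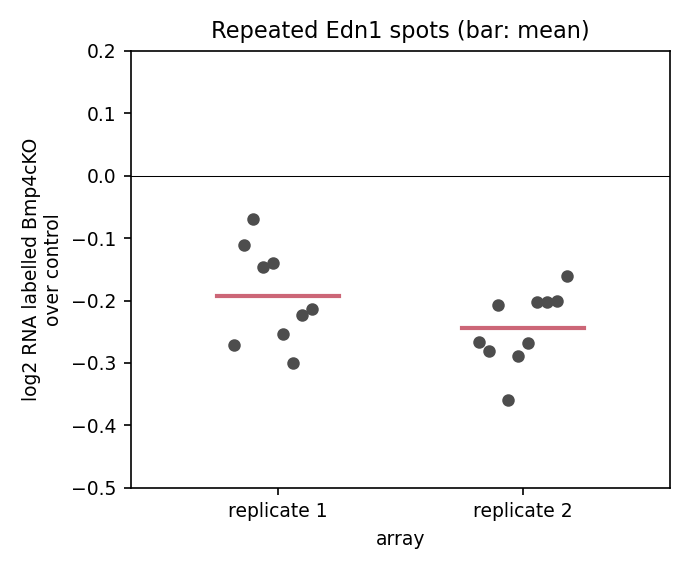
Log2 ratio of RNA labelled Bmp4cKO over control for each repeated Edn1 spot, by array; dots are spots, bars their mean, 1 outlier spot of replicate 1 left out. All spots lie below 0, between -0.30 and -0.07 on replicate 1 and between -0.36 and -0.16 on replicate 2.

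Chrm3 was the other receptor gene at least 2-fold higher on both arrays. It encodes the M3 muscarinic receptor, which couples to Gq and drives contraction of many smooth muscles in response to acetylcholine. Signals were 34.1 and 26.5 in the RNAs labelled control and 115 and 127 in those labelled Bmp4cKO. The genotypes were well apart, at a low signal. The log2 ratio was 1.06 and 1.26, a mean of 1.16 ± 0.14 (SD, n = 2 arrays), or 2.23-fold higher (95% interval of the mean log2 0.84 to 1.47; limma adjusted p = 0.029). An offset of 50 added to every signal before the ratio draws dim genes toward 0; with the processed signals alone the difference was 3.39-fold and 4.80-fold on the arrays, a mean log2 of 2.01. Chrm2, the gene of the M2 receptor, which couples to Gi, was not well above background in any RNA, with signals from 7.52 to 18.6, and no fold is given. The probes of Chrm2 and Chrm3 share no run longer than 5 bases.

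The 2 angiotensin II receptor genes went opposite ways in signal. Agtr1a encodes the type 1A receptor, through which angiotensin II contracts smooth muscle. It had signals of 188 and 178 in the RNAs labelled control and of 324 and 391 in those labelled Bmp4cKO, with no overlap. The log2 ratio was 0.76 and 0.95, a mean of 0.86 ± 0.13 (SD, n = 2 arrays), or 1.81-fold higher (95% interval of the mean log2 0.54 to 1.17). The adjusted p from limma, 0.048, was close to the threshold, and ranged from 0.014 to 1.00 over 13 other settings that keep the dye labels. The call was lost with the processed signals (limma adjusted p = 0.058) and with the mean of the probes of a gene (0.051). It was also lost with median centring and with no normalization, which called 0 and 1 of all genes tested. The ratio itself was 0.83 or more in all of these.

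Agtr2 encodes the type 2 receptor, which is abundant in fetal mesenchyme and whose loss is known to cause defects of kidney and ureter. It had signals of 5783 and 5736 in the RNAs labelled control and of 3847 and 4930 in those labelled Bmp4cKO. The control signals were almost equal and both above the Bmp4cKO signals, which differed from each other. It was lower by a log2 ratio of -0.61 on the first array and -0.19 on the second, mean -0.40 ± 0.30 (SD, n = 2 arrays; 95% interval -0.79 to -0.02), and was not called (limma adjusted p = 0.32). Agtr2 is on the X chromosome, and the Xist and Y-linked signals above differ between the channels of replicate 2, where its ratio was nearer to 0. Agtr1b, the gene of the other type 1 receptor of the mouse, had signals of 84.9 and 35.7 against 59.6 and 27.5, a mean log2 of -0.27, and was not called.

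Ptger2 encodes the EP2 receptor for prostaglandin E2, which couples to Gs and relaxes smooth muscle. It had signals of 35.5 and 43.7 in the RNAs labelled control and of 66.6 and 85.4 in those labelled Bmp4cKO, without overlap. The log2 ratio was 0.55 and 0.65, a mean of 0.60 ± 0.07 (SD, n = 2 arrays; 95% interval 0.30 to 0.90), which did not pass (limma adjusted p = 0.092). With the processed signals the mean was 0.94, 1.92-fold, and passed (limma adjusted p = 0.042), as it did under 3 other settings. Those are plain background subtraction, a normexp offset of 10 and, with the ratio unchanged at 0.60, a trend in the variance prior.

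Oxtr, the gene of the oxytocin receptor, which contracts the uterus and is present in other smooth muscles, differed least. Its signals were 132 and 130 in the RNAs labelled control and 112 and 124 in those labelled Bmp4cKO. The mean log2 ratio was -0.12 ± 0.06 (SD, n = 2 arrays; 95% interval -0.42 to 0.18; limma adjusted p = 0.76), and it was not called. Adra1a, the gene of the alpha-1A adrenoceptor through which noradrenaline contracts the ureter, was not well above background in any RNA, with signals from 3.27 to 5.39. Other alpha-1 adrenoceptor genes were measured: Adra1b had signals of 2920 and 2341 against 2548 and 1912, a mean log2 of -0.21, and Adra1d had 148 and 145 against 119 and 182, with opposite signs on the arrays. Neither was called.

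**Figure D2:**
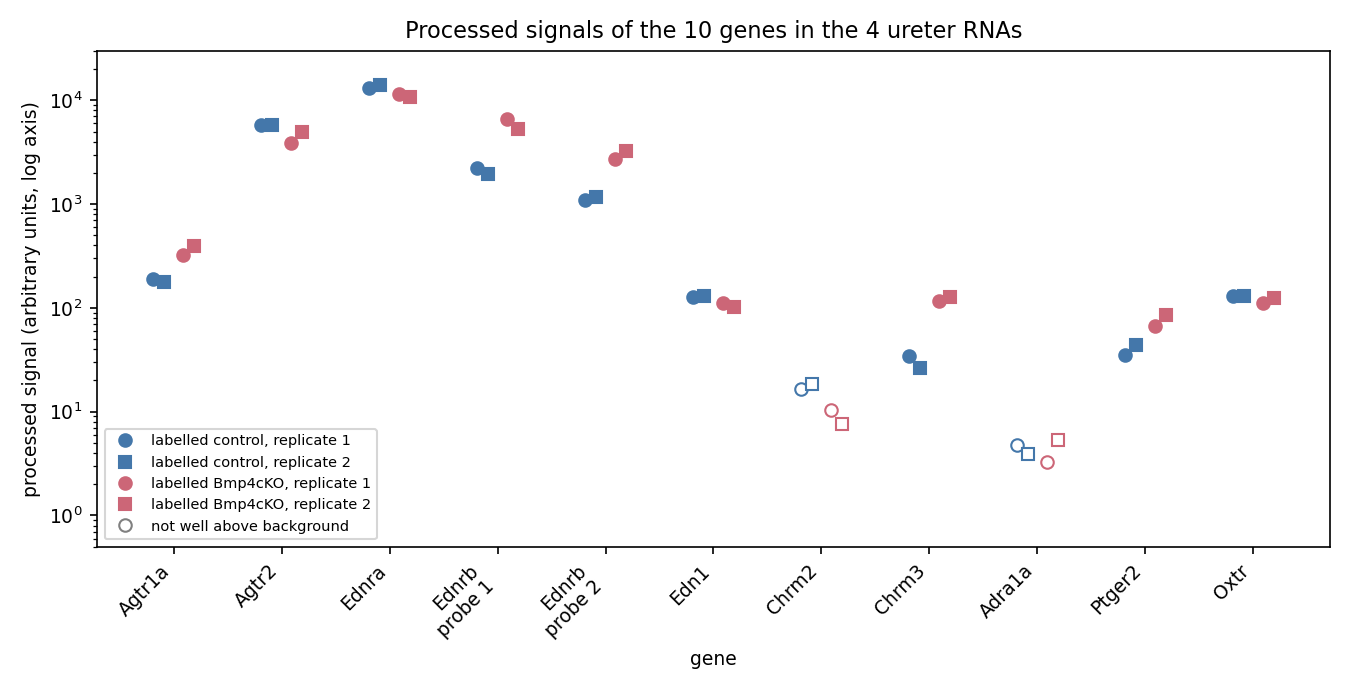
Processed signal of each probe of the 10 genes (log axis, arbitrary units) in the RNAs labelled control (blue) and Bmp4cKO (red) of replicates 1 (circles) and 2 (squares); open symbols are not well above background. Ednrb by both probes, Chrm3, Agtr1a and Ptger2 are higher in both RNAs labelled Bmp4cKO, and Chrm2 and Adra1a are open throughout; heights of different probes cannot be compared.

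Of the 8 measured genes, 3 were called higher (Ednrb, Chrm3, Agtr1a) and 0 lower, at an adjusted p under 0.05. Over all genes tested limma called 1.91%, of which 0.887% of all genes were higher in the RNA labelled Bmp4cKO and 1.02% lower. At an unadjusted p under 0.05 by limma 4 of the 8 were higher (Ptger2 also) and 1 lower (Agtr2), against 7.15% and 7.37% of all genes. Ednrb and Chrm3 were at least 2-fold higher on both arrays, a rule met by 0.578% of all genes, and 0 of the 8 were 2-fold lower on both, against 0.619%. On both arrays 4 of the 8 were higher and 4 lower, against 28.2% and 30.6% of all genes. The processed signals did not overlap between the genotypes for any of the 8 genes, 4 higher and 4 lower, where 16.4% of all genes were apart with higher and 17.7% with lower signals. The median log2 ratio of the 8 genes was 0.24, against -0.01 over all genes. In bulk RNA, fewer cells of a type and less RNA per cell cannot be told apart.

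**Figure D3:**
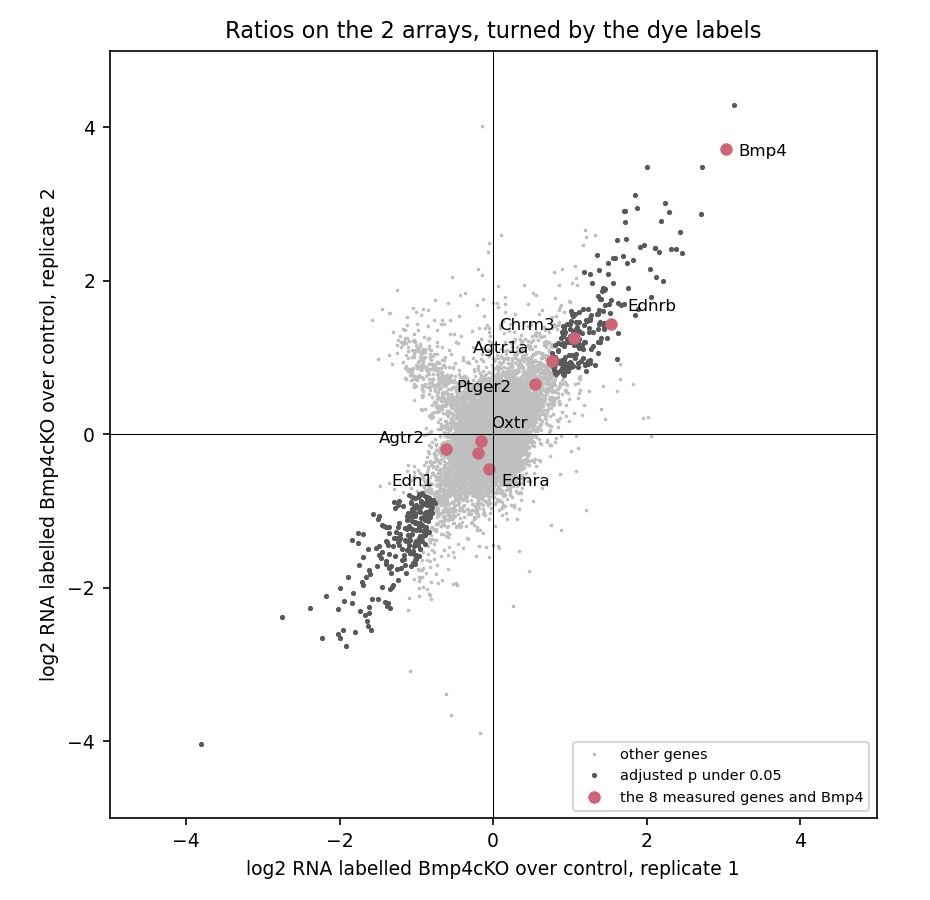
Log2 ratio of RNA labelled Bmp4cKO over control on replicate 1 (x) against replicate 2 (y) for 21978 genes; dark points are the 420 called by limma and red points the 8 measured genes and Bmp4. Ednrb, Chrm3, Agtr1a and Ptger2 lie up and right toward Bmp4, and Agtr2, Ednra, Edn1 and Oxtr near the origin, below 0 on both arrays.

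With median centring of the ratios in place of the loess step, or with no normalization, 0 of the 8 genes was called by limma. Of all 21978 genes these settings called 0 and 1. With the median 4 of the 8 had an unadjusted p under 0.05, against 1760 of all genes. With no normalization 0 of the 8 did, against 108 of all genes. Over the 13 settings that keep the dye labels, the log2 ratio of Ednrb lay between 1.41 and 1.52 and that of Agtr1a between 0.83 and 0.96. The dim genes ranged more widely, Chrm3 from 1.12 to 2.01 and Ptger2 from 0.57 to 0.94. Ednrb and Chrm3 passed in 11 of the 13, Agtr1a in 9 and Ptger2 in 4. Settings that change only the filter, the variance prior or the fit keep the ratios of these genes. Among the 13, the fit of separate channels with the array as a block is the reported test in another form.

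**Figure D4:**
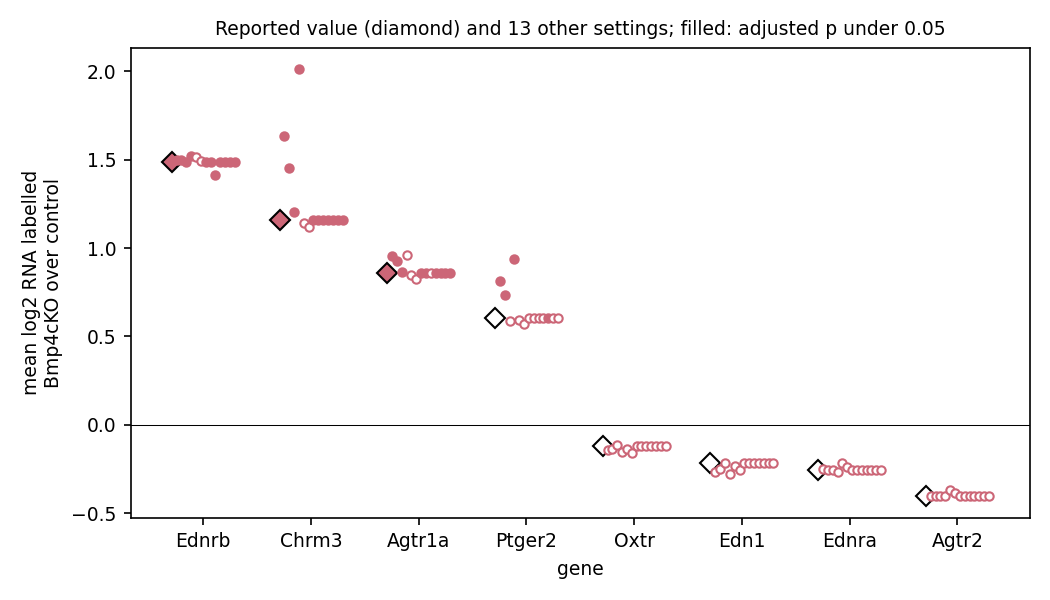
Mean log2 ratio of RNA labelled Bmp4cKO over control for the 8 measured genes in the reported setting (diamond) and 13 other settings that keep the dye labels (dots); filled symbols have an adjusted p under 0.05. No gene changes sign, Chrm3 spreads up to 2.01, and Agtr2, Ednra, Edn1 and Oxtr are open in all settings. Settings that change only the filter, the variance prior or the fit cannot move a ratio here.

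The other genes of each signalling system were read from lists fixed by name. The counts of these lists and of the marker lists below stand beside the shares over all genes tested. Of those limma called 1.91%, and 7.15% were higher and 7.37% lower at an unadjusted p under 0.05. In the angiotensin system, 2 of 10 measured genes were lower and 0 higher, with a median log2 of -0.10. Enpep, the gene of aminopeptidase A, a membrane peptidase that cuts angiotensin II, had signals of 8142 and 8348 against 3957 and 3571. Its ratio was -1.06 and -1.24 on the arrays, a mean of -1.15 (limma adjusted p = 0.029), and its call was lost in 2 of 13 other settings.

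In the endothelin system 1 of 6 further genes was lower and 0 higher, with a median of -0.27. It was Mme, which encodes neprilysin, a peptidase that degrades endothelin and other peptides, with signals of 2130 and 1960 against 1023 and 718. The mean log2 was -1.20, and a further probe gave -1.19 (limma adjusted p = 0.035, lost in 4 of 13 other settings). Endothelin converting enzyme Ece1 was at 0.09 and was not called. Edn3, the ligand gene whose product acts on the B receptor, had signals of only 46.4 and 53.4 against 31.2 and 38.4, a mean of -0.24, and was not called.

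In the cholinergic system 1 of 7 measured genes was lower and 0 higher, with a median of -0.71, opposite in direction to Chrm3. Slc18a3, the vesicular transporter that loads acetylcholine in nerve endings, had signals of 411 and 464 against 147 and 122, with mean log2 -1.46 ± 0.15 (SD, n = 2 arrays; limma adjusted p = 0.021). Chat, which makes acetylcholine, Slc5a7, which takes up choline, and Ache, which degrades acetylcholine, had means of -0.71, -0.77 and -0.79 and were not called; a further Ache probe read -0.26. Nerve and neural crest markers went the same way: 4 of 11 measured were lower and 0 higher, among them the neuronal genes Tubb3 at -1.52 and Elavl3 at -0.89, and the receptor gene Ret at -1.20. The summed signal of that list was 7055 and 7826 in the RNAs labelled control and 5193 and 5336 in those labelled Bmp4cKO. The part of nerve cells in the Slc18a3 difference was not tested.

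In the prostanoid system 1 of 15 measured genes was higher and 1 lower, with a median of -0.06. Hpgd, which encodes the enzyme that inactivates prostaglandin E2, had signals of 770 and 802 against 2415 and 2747, with mean log2 1.64 ± 0.15 (SD, n = 2 arrays; limma adjusted p = 0.020), with a further probe at 1.66. Ptger3, the gene of the EP3 receptor, which couples to Gi and contracts smooth muscle, had signals of 1138 and 1093 against 486 and 511. Its ratio was -1.10 and -1.08, a mean of -1.09 (limma adjusted p = 0.029), and a further probe was lower on both arrays, at -0.97 and -1.03. Among the EP receptor genes Ptger3 was thus lower while Ptger2 was higher in signal, and Ptger1 and Ptger4, at -0.16 and 0.02, were not called. Ptgs1, a cyclooxygenase, was at 0.19 and was not called.

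In the adrenergic system 0 of 12 measured genes were called by limma, and 2 had an unadjusted p under 0.05; the median was -0.04. Adrb3, the gene of the beta-3 adrenoceptor, which relaxes smooth muscle, read -0.40 on replicate 1 and -0.65 on replicate 2 (mean -0.52) and was not called. Of 3 measured genes of the oxytocin and vasopressin system 0 were called and 1 had an unadjusted p under 0.05. Avpr1a, the contractile V1a vasopressin receptor gene, was at -0.81 (-0.42 and -1.20) and Avpr2 at -0.23. Among 21 measured receptors for other agents 1 was called: Npy1r, the gene of the neuropeptide Y receptor Y1, was higher, with signals of 1139 and 1342 against 4518 and 4084, and mean log2 1.76 ± 0.19 (SD, n = 2 arrays; limma adjusted p = 0.020). Of the 21, 12 had an unadjusted p under 0.05, and 10 were lower and 6 higher on both arrays. Their means ran from -0.85 to 1.76 with a median of -0.07.

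The shared steps from receptor to myosin showed no called gene, which for lists of this size is near the 1.91% called over all genes. At an unadjusted p under 0.05, 7.15% of all genes were higher and 7.37% lower. On both arrays 28.2% of all genes were higher and 30.6% lower. Of 26 genes of the Gq and calcium pathway and of myosin regulation 0 were called by limma and 5 had an unadjusted p under 0.05; 13 were higher and 1 lower on both arrays, with a median of 0.11. Mylk, the kinase that starts contraction by phosphorylating myosin light chain, was at 0.66 (limma adjusted p = 0.093), and Ppp1r14a, an inhibitor of myosin phosphatase, at 0.44. Of 16 genes of Gs, Gi and cyclic nucleotide signalling 0 were called, with 2 at an unadjusted p under 0.05 and a median of -0.01. Gucy1a1, a subunit of the nitric oxide receptor, was at -0.44 and Gnai1, a Gi subunit, at 0.41.

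**Figure D5:**
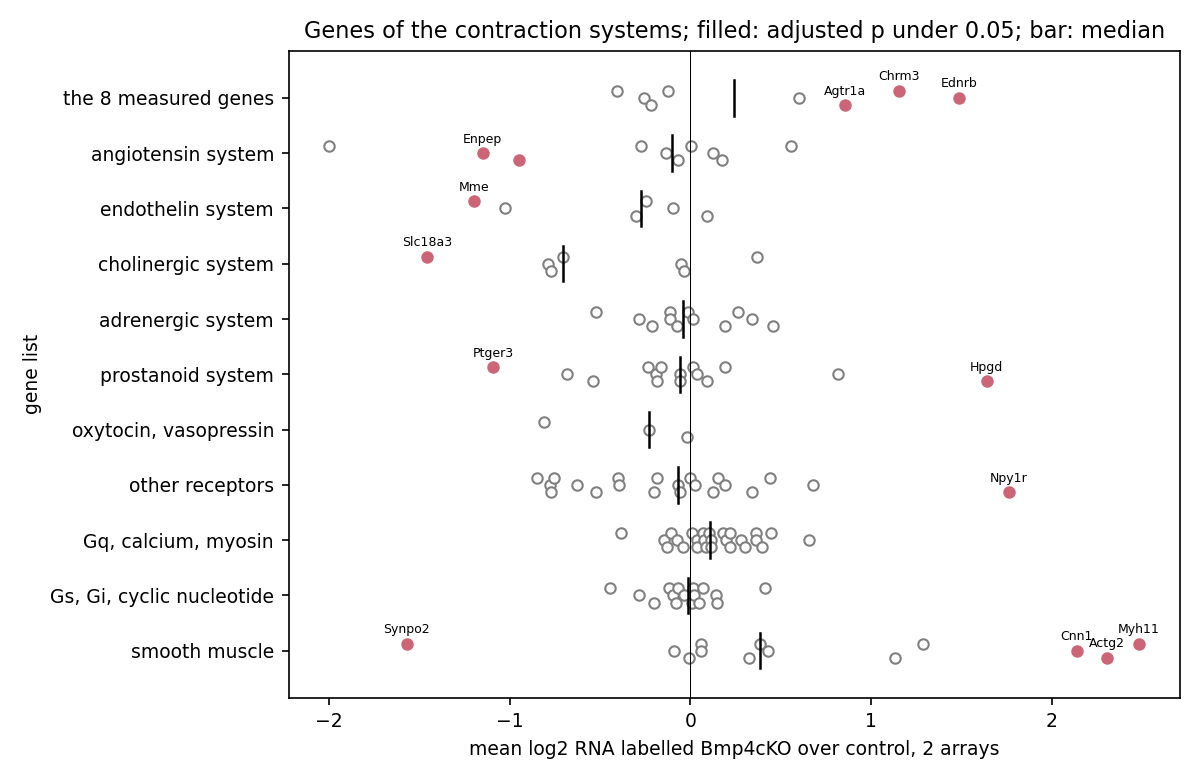
Mean log2 ratio of RNA labelled Bmp4cKO over control of each measured gene, by list; filled genes have an adjusted p under 0.05, most with their name, and bars are medians. Cell type marker lists other than smooth muscle are not drawn. Among the lists drawn, medians run from -0.71 for the cholinergic system to 0.39 for smooth muscle, and no gene of the adrenergic, Gq or Gs lists is filled.

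Markers of smooth muscle, endothelium and pericytes were read too, and called genes were found only among those of smooth muscle. Over all genes 1.91% were called, so a short list with none is near that share. Of 13 measured smooth muscle genes 3 were higher and 1 lower, with a median of 0.39; Myh11, the smooth muscle myosin, was at 2.48, Actg2 at 2.31, Cnn1 at 2.14 and Synpo2 at -1.57, with further probes of Synpo2 at -0.59 and -0.56. Acta2 and Myocd, the actin and the co-activator of smooth muscle genes, had means of 1.13 and 1.29 and were not called. Over the 13 other settings that keep the dye labels, the call of Myh11 was lost in 3 and that of Actg2 in 4, both among them with a robust prior (limma adjusted p = 0.14 and 0.13), while Acta2 passed in 5 and Myocd in 3. The summed signal of the smooth muscle list was 94427 and 113236 in the RNAs labelled control and 114830 and 142427 in those labelled Bmp4cKO, close to each other at 113236 and 114830. Bright probes carry most of such a sum: Myl9 alone gave 37848 and 51993 against 46029 and 44158, with a mean log2 of 0.06. Of 12 endothelial genes 0 were called by limma, 5 had an unadjusted p under 0.05 and 10 were higher on both arrays, with a median of 0.28 and summed signals of 34189 and 37222 against 39284 and 52174; Sox17 was at 0.66 and Cldn5 at 0.62. Of 6 pericyte genes 0 were called, 0 had an unadjusted p under 0.05 and 5 were lower on both arrays (median -0.28), with Cspg4 at -0.38 and Notch3 at -0.35.

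Neural crest markers, whose cells are known for Ednrb, did not go its way: Sox10 was at -0.07 and the list's median at -0.60, and the melanoblast gene Dct was not well above background. Of 15 urothelial genes 9 were higher and 0 lower, with Upk1b at 3.72, Upk3a at 2.48, Upk2 at 2.41 and Pparg at 2.27. Of 12 kidney genes 0 were higher, 5 lower and 7 not called, with Gdnf at -2.15 and Wnt9b at -1.97. The summed signal of the 12 was 48161 and 77158 in the RNAs labelled control against 27841 and 35018. Much of that sum came from Smoc2, which alone gave 25527 and 39069 against 10491 and 12515. Of 10 ureter mesenchyme genes 4 were higher (Bmp4, Tbx18, Id4 at 1.11, Gata6 at 1.09) and 1 lower (Aldh1a2 at -1.83). Of 7 leukocyte and 6 erythroid genes 0 were called by limma, with 3 and 2 at an unadjusted p under 0.05. The part of any of these cell types in the differences of Ednrb, Chrm3, Agtr1a or Ptger2 was not tested.

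The 250 bases before the gene start, from RefSeq on build GRCm38.p6, were read for 8 of the 10 genes; Agtr1a and Adra1a are named only. They were searched on both strands for the CArG box, the site of serum response factor in smooth muscle genes, for GGCGCC, a GC-rich site of BMP-activated SMADs, and for CAGAC, a general SMAD element. No window of the 8 held a CArG box or GGCGCC, which 1.47% and 9.59% of 32851 promoters hold. CAGAC, held by 42.2%, was found in those of Ednra, Ednrb and Edn1. The windows of the genes at least 2-fold higher on both arrays are printed, with the letters of CAGAC or its complement GTCTG in capitals; the window of Chrm3 holds none.
Ednrb, chr14:103843702-103843951, minus strand: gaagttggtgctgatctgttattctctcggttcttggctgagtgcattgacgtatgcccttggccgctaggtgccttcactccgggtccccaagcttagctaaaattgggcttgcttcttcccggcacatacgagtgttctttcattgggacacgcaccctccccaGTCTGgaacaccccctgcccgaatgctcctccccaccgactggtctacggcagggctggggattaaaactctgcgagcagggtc
Chrm3, chr13:10360804-10361053, minus strand: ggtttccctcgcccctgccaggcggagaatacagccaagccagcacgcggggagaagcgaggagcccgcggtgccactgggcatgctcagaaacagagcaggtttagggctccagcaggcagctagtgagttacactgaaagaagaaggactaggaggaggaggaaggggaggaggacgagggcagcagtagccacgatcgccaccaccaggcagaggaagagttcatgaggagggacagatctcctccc
The match in Ednrb starts 84 bases before the gene start. A match is a description of letters, and these arrays did not measure binding.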

How the data were processed

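Spots were quantified with Agilent Feature Extraction 10.7.3.1, per the submitters' processing notes, with probe positions on mm9 per the file headers. Per the file headers, spot and local background intensities are raw, processed signals have had background, spatial trend and dye corrected by the scanner software, and its ratio is stored as log10 (red over green). The authors' value table holds a signed fold, a score that in size came to 0.01 (log2) or nearer to that ratio for 99.7% and 99.6% of 26297 probes well above background in all channels, and whose sign ran against the dye labels on both arrays. No source used here gives its order.

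Background was corrected with normexp (offset 50), red over green normalized within arrays by loess with control spots at weight 0, and outlier spots (231 and 235) left out, in limma 3.58.1 under R 4.3.3. No probe spot was saturated, and 69.3% to 74.6% were well above background in a channel. Ratios were turned by the dye labels to RNA labelled Bmp4cKO over control. A probe had to be well above background in both RNAs of at least 1 genotype, and the brightest such probe stood for its gene; names came through RefSeq accessions, symbols or synonyms of GRCm38.p6 (names only). Each gene was fitted with lmFit and eBayes, with Benjamini-Hochberg adjustment over 21978 genes; 1 residual and 4.03 prior degrees of freedom mean that a variance shared over genes carries most of each test. The fit was tested on simulated data. The number of arrays, 2, limits the precision. The 10 genes, the lists and the alternatives were chosen with earlier results of these data known. Named genes were the 10, Bmp4, Tbx18, sex-linked genes, Acta2, Myh11, Myocd, and up to 4 called genes of each list or, with none, the 2 largest of like sign; Agtr1b, Adra1b, Adra1d, Ece1, Edn3, Chat, Slc5a7, Ache, Ptger1, Ptger4, Ptgs1, Sox10, Dct and Myl9 were added for their role after their values were seen. Some genes of the lists are counted but not reported by name here.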

Additional observations from a re-analysis of the deposited data

Results flagged for a closer look

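The brighter Xist probe read -0.14 on replicate 1 and 4.02 on replicate 2, arrays of different sex label, a difference of 4.16 (log2) that was not tested. The signs are opposite by this probe only: the other Xist probe read 0.35 and 5.24. Genes of the Y chromosome, outside the genes tested, had signal in the control RNA of replicate 2, at 2720 for Ddx3y and 2741 for Eif2s3y. The median of the angiotensin genes was 0.01 on replicate 1 and -0.21 on replicate 2, a difference of -0.21, and that of the adrenergic genes -0.12 and 0.11, a difference of 0.23; neither difference was tested. None of the 8 measured receptor and ligand genes went in opposite directions on the arrays.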

How the results depend on the processing

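The count of called genes, 420 as reported, was 727 with plain background subtraction, 698 with normexp at offset 10, 1283 with a trend in the prior, 0 with median centring (1760 at an unadjusted p under 0.05 by limma) and 1 with no normalization; the number of called genes among the 8 was 0 in each of the last 2 settings and 2 to 4 in the others. Under the authors' deposited signs, 636 genes were called, 338 higher and 298 lower, and every one of the 8 genes turned: Ednrb to -1.52, Chrm3 to -2.01, Agtr1a to -0.96, Ptger2 to -0.94, Agtr2 to 0.40, Ednra to 0.27, Edn1 to 0.28 and Oxtr to 0.15, with Bmp4 at -3.41 and Tbx18 at -0.99. Under the 13 settings that keep the dye labels none of the 8 changed sign, nor did any of 46 other named genes. Settings that change only the filter, the variance prior or the fit keep the ratios of these genes, so they could not change a sign. Each array pairs its RNAs. Fitting separate channels with the array as a replicate block is the same paired test in another form, so its count of 420 genes was fixed in advance. Without the block 326 genes were called, with the same 3 of the 8. Leaving out an array leaves 1 and no test; the single ratios are given with each gene. With plain background subtraction Chrm3 read 1.63 and Ptger2 0.82, both dim, and for Chrm2 and Adra1a no difference was measurable.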

Other observations

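Ren1, the gene of renin, which starts the angiotensin cascade in the kidney, was named after its values were seen. It had processed signals of 452 and 7357 in the RNAs labelled control and of 308 and 627 in those labelled Bmp4cKO, on replicates 1 and 2. Its log2 ratio was -0.62 and -3.38, an SD of 1.95 over the 2 arrays, and Ren1 was not called (limma adjusted p = 0.24). The signal of the control of replicate 2 stands apart from the other 3 RNAs. Some mouse strains carry Ren2, a near-identical copy, so the reading is uncertain. The kidney markers Wt1 and Smoc2, with signals in that control of 5013 and 39069, were lower on both arrays, at -1.34 and -1.43.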
